A study of Mus musculus with 3 samples.

Results

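Long intergenic noncoding RNAs (lincRNAs) expressed in mouse CD4-positive effector memory T cells were examined as a set of 225 genes. The members are the genes that GENCODE M21 types as lincRNA and that reached a level of 1 TPM (a length-corrected share of all transcripts in a library, on a scale common to the libraries) in each of 3 libraries. They make up 3.84% of 5854 lincRNA genes and belong to an annotation of 55536 genes. Small nucleolar RNA host genes with symbols starting with Snhg were left out, which removed 5 lincRNA genes, 4 of them at the level, and Gas5 is not typed as lincRNA in this annotation. The cells carry an alpha-beta receptor and came from 1 male C57BL/6J mouse aged 7 months. Polyadenylated RNA was sequenced in 3 libraries that the labels number as technical replicates of 1 biological replicate, so they form 1 group with no second condition. No description of the sort was used. By their label they are helper T cells that have met antigen. Of the genes that define such cells, Cd4 stood at 479, 470.3 and 477 TPM, and Cd3e at 699, 646 and 694 TPM, while Cd8a, of the other main T cell class, stood at 0.03, 0.04 and 0.06 TPM in libraries 1, 2 and 3.

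LincRNAs are transcribed by RNA polymerase II, spliced and often polyadenylated like messenger RNAs, and are annotated without a protein, although some have later been found to encode short ones. Some act in the nucleus as scaffolds, some act on a neighbouring gene where they are made, some are precursors of microRNAs, and for most no role is known. In T cells, several have been tied to cytokine genes, to cell survival and to microRNAs of the immune response. Of the 225 members, 140 carry a provisional Gm symbol, 52 a Rik symbol, 4 an AC symbol and 29 another symbol. RefSeq held an entry for 121 of them, typed as noncoding in 106, as protein-coding in 10, among them 1810058I24Rik, and as a pseudogene of some kind in 5. Gene counts summed to 16251564, 14878641 and 14152590 in libraries 1, 2 and 3, and a gene with 0 counts could have been missed at up to 0.185, 0.202 and 0.212 CPM (counts scaled to a common library total), as a limit of counting error only. In bulk RNA, fewer cells with a transcript and less of it per cell cannot be told apart. All values below that follow one another as 3 numbers are for libraries 1, 2 and 3.

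Expression of lincRNAs was concentrated in a few genes. The median member stood at 4.67, 4.30 and 4.55 TPM (4.51 ± 0.189, SD, n = 3 libraries), against 27.7, 28.7 and 27.2 TPM (27.9 ± 0.752) for the 10013 protein-coding genes that passed the same level, which are 45.5% of 22028. Of the members, 61 had a mean of 10 TPM or more, 11 reached 100 TPM and 2 reached 1000 TPM, while 36 stayed under 2 TPM. The 20 highest members took 85.4%, 85.9% and 85.6% of the summed TPM of all 225. Together the members took 1.14%, 1.11% and 1.19% of all gene TPM. Because TPM chose the members, these levels are a description with no test. A further 245 lincRNA genes reached the level in some libraries but not in every one, and 2426 lincRNA genes had 0 counts throughout.

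**Figure D1:**
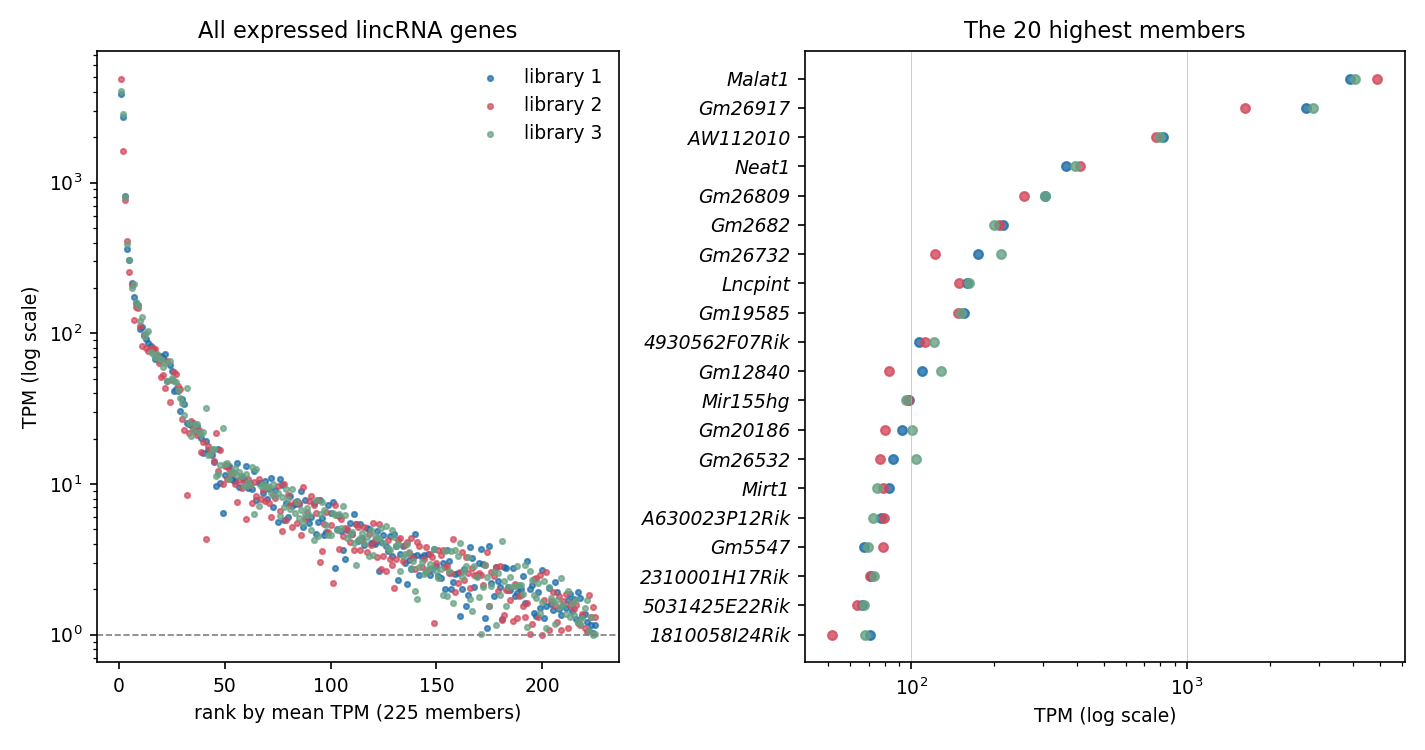
The left panel plots TPM on a log scale against rank by mean TPM for all 225 members, with a dashed line at the level of 1 TPM that chose them, and the right panel plots the 20 highest members by name. Each point is 1 library. Levels fell from over 1000 TPM for Malat1 and Gm26917 to means under 100 TPM from the 12th member on, and Gm26917 in library 2 lay well below its other 2 libraries.

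The level of 1 TPM cut through a continuum of values. Just inside it were Gm28151 at 2.67, 1.00 and 1.64 TPM, C030034L19Rik at 1.02, 1.52 and 1.00 TPM, and Gm15473 at 1.16, 1.30 and 1.01 TPM. Just outside were Gm42470 at 0.99, 1.12 and 1.69 TPM, Gm19589 at 1.05, 1.01 and 0.97 TPM, and Gm14230 at 2.31, 1.81 and 0.96 TPM. Gm42470 rested on 2, 2 and 3 counts. The spread between libraries narrowed with level, from a median coefficient of variation of 25.2% for the 36 members under 2 TPM to 9.59% for the 38 members at 20 TPM or more.

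Malat1, a nuclear RNA of splicing speckles, was the highest member by TPM at 3883, 4900 and 4051 TPM. It lies on chromosome 19 from 5795690 to 5802672 on the minus strand of GRCm38, and library 2 was the highest of the 3. Its neighbour Neat1, the scaffold RNA of paraspeckles, lies 22036 bases from it on the same strand and measured 363, 408 and 392 TPM. The Neat1 libraries also had library 2 on top, but within 1.10-fold of the lowest after normalisation.

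Both of these levels depended on which annotated transcript the reads were given to. A transcript of 485 bases in 2 exons at the 5′ end of Malat1 was given 98.2%, 98.3% and 98.2% of the gene's TPM, and the full-length transcript of 6983 bases 1.78%, 1.75% and 1.77%. The short transcript took 16550, 18571 and 15254 counts and the full-length one 4765, 5262 and 4378 counts. In Neat1 a transcript of 3004 bases took 96.9%, 96.9% and 96.1% of the TPM, and the 20771-base one 1.76%, 1.57% and 1.73%. When counts were instead divided by the longest annotated transcript of each gene and scaled like TPM, Malat1 stood at rank 3 at 458, 576 and 480, behind Gm26917 and AW112010, and Neat1 at rank 14 with 84.6, 94.0 and 91.2. On that scale 16 of the 20 highest members stayed among the 20 highest.

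The ends of these transcripts are shown because the libraries were made from polyadenylated RNA. The last 50 bases of each transcript are shown 5′ to 3′ from the GENCODE M21 sequences on GRCm38, with the signal hexamers AATAAA or ATTAAA in capitals.
Malat1 short transcript, chr19:5801916-5801965, minus strand: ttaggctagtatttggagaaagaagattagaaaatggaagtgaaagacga
Malat1 full-length transcript, chr19:5795690-5795739, minus strand: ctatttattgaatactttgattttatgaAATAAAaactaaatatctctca
Neat1 short transcript, chr19:5842307-5842356, minus strand: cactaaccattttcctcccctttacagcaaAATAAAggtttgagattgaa
Neat1 long transcript, chr19:5824708-5824757, minus strand: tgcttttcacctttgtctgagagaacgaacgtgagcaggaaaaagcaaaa
AW112010, chr19:11047612-11047661, minus strand: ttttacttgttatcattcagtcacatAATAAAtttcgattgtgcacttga
Mir155hg, chr16:84715196-84715245, plus strand: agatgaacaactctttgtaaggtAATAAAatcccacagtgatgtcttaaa
Gm26917, chr17:39846292-39846341, plus strand: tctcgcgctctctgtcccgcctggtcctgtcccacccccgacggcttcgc
The full-length Malat1, the short Neat1, AW112010 and Mir155hg ends held a hexamer, whereas the short Malat1 transcript that took most of the reads, the long Neat1 transcript and Gm26917 held none in this window. Over all members, 101 of 225 leading transcripts (44.9%) held a hexamer in their last 50 bases on the transcript strand, against 7109 of 10003 (71.1%) leading transcripts of expressed protein-coding genes. These letters are a description of the annotated end and not of the ends of the RNA in the cells.

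A gene annotated on the other strand overlaps the exons of Malat1. Gm37376, a 453-base gene with the TEC biotype, named here after its values were seen, at 5801941 to 5802393 on chromosome 19, lies across the exons of the short Malat1 transcript on the plus strand and was given 5481, 6469 and 5569 TPM. Its counts were 22041, 23124 and 19785, against 21317, 23833 and 19632 for Malat1. The summed counts were 43358, 46957 and 39417, of which Malat1 was given 49.2%, 50.8% and 49.8%. The strand setting of the quantification was not stated, and the part of this overlap in the Malat1 level was not tested. The assignment uncertainty of Malat1, the posterior standard deviation of its count over the posterior mean, was at most 0.277%.

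Gm26917 was the second member by TPM and the first by counts, and it lies beside ribosomal RNA. It spans 39843013 to 39846341 on the plus strand of chromosome 17 as a single exon of 3329 bases and was given 88307, 47123 and 82182 counts, or 2705, 1624 and 2849 TPM. The annotated ribosomal RNA gene CT010467.1 starts at 39846353 and ends at 39848827 on the opposite strand, and the member Gm42418, at 39846958 to 39848788, lies within it. RefSeq gives Gm42418 as a synonym of Rn18s-rs5, which it types as a pseudogene, and the levels of Gm42418 were 61.6, 34.9 and 65.2 TPM. CT010467.1 itself was given 6399, 2265 and 7103 TPM. Library 2 was the lowest for all 3 genes, at 0.584 of the mean of libraries 1 and 3 for Gm26917, 0.550 for Gm42418 and 0.329 for CT010467.1 in normalised counts. Among mitochondrial ribosomal RNAs the same ratio was 0.681 for mt-Rnr2 and 1.38 for mt-Rnr1, genes named here after their values were seen, as was CT010467.1.

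Gm26917 and Gm42418 decided how large a share of the reads the members took. They held 49.2%, 36.4% and 49.8% of all member counts. With them the members took 1.12%, 0.881% and 1.18% of gene counts, and without them 0.569%, 0.561% and 0.594%. The SD over libraries fell from 0.159 to 0.0172 percentage points. How much of their signal is ribosomal RNA rather than a separate transcript was not tested.

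AW112010, a transcript induced by inflammatory signals and reported in mouse macrophages to be translated into a short protein, was the third member at 818, 769 and 798 TPM. Its 3 libraries lay within 1.07-fold of each other in normalised counts, and its nearest protein-coding gene, Ms4a8a, stood at 0.827 TPM. A second gene table deposited by the authors, which counts whole reads on GENCODE M4, gave it 433, 385 and 401 counts against 4721, 3955 and 4070 estimated counts. That is 9.17%, 9.73% and 9.85%. The totals are unlike, at 5110680, 4812984 and 4579836 counts against 16251564, 14878641 and 14152590 estimated counts, so part of this gap is the lower total. Only 7 members appear in that table.

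The members from rank 5 to rank 20 ranged from a mean of 289 to 63.4 TPM. Gm26809 measured 306, 256 and 306 TPM, Gm2682 215, 208 and 199 TPM, and Gm26732 175, 122 and 211 TPM. Library 2 was the lowest for Gm26809 and Gm26732 but not for Gm2682. Lncpint, which is induced by p53 in mouse cells, followed at 159, 148 and 162 TPM, with counts in 13 of 16 annotated transcripts, and Gm19585 at 155, 148 and 152 TPM. The rest of the 20 had means of 113 TPM for 4930562F07Rik, 107 for Gm12840, 97.0 for Mir155hg, 90.9 for Gm20186, 88.7 for Gm26532, 79.0 for Mirt1, 76.5 for A630023P12Rik, 71.9 for Gm5547, 71.8 for 2310001H17Rik, 65.5 for 5031425E22Rik and 63.4 for 1810058I24Rik. Neighbours in this order differed by less than the larger of their SDs over libraries from Gm2682 to Gm19585, from 4930562F07Rik to 2310001H17Rik, and between 5031425E22Rik and 1810058I24Rik. The steps above Gm2682, the step from Gm19585 to 4930562F07Rik and that from 2310001H17Rik to 5031425E22Rik were wider than those SDs.

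Members with a described role were looked for in 6 lists of known noncoding RNAs. From the list of nuclear architecture RNAs, 2 of 6 annotated genes were members, and from the list of microRNA hosts 5 of 12. Those hosts were Mir142hg, Mir155hg, Mir17hg, Ftx and Mirt1, although no annotated microRNA gene lay within Mirt1. The X-inactivation and imprinting list gave 2 of 13, the growth, p53 and stability list 5 of 15, the immune list 4 of 18 and the developmental list 1 of 19. These counts match by symbol, and RefSeq names add Gm14005, which is Morrbid, to the immune list, making 5 members there. The single developmental member was Gm26917. Many listed genes have another gene type and could not be members.

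The growth and stability members were expressed at moderate levels. Norad, annotated here as 2900097C17Rik and known to bind Pumilio proteins in the cytoplasm, measured 48.1, 65.9 and 48.3 TPM, and its library 2 stood above the other libraries. Cyrano, annotated as 1700020I14Rik and known to trigger decay of miR-7, measured 41.6, 55.0 and 48.1 TPM, also highest in library 2. Pvt1, which lies next to Myc, measured 41.2, 44.6 and 42.2 TPM, and Epb41l4aos 10.6, 11.9 and 11.9 TPM. Among the X-inactivation genes, Ftx stood at 13.9, 14.2 and 17.04 TPM and Jpx at 4.07, 3.92 and 4.96 TPM. The immune members matched by symbol were AW112010, Gm2682, Mirt1 at 82.7, 79.2 and 75.03 TPM, and Ifngas1, the transcript next to the interferon gamma gene, at 3.65, 2.85 and 1.80 TPM on 39, 27 and 17 counts. Ifng itself measured 612 TPM and lies 56143 bases from Ifngas1, outside the 50 kb window.

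MicroRNA hosts were among the better-described members, and the sequences they carry show which target seeds they could supply. On the members' own strand lay 20 annotated microRNA genes in 11 members, and 16 of them had mature sequences in RefSeq on GRCm38. The main products of the 4 hosts that carry well-known immune or growth microRNAs are shown 5′ to 3′, with the seed, bases 2 to 8, in capitals.
miR-155-5p: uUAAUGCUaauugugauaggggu
miR-142a-5p: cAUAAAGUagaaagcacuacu
miR-142a-3p: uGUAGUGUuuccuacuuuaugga
miR-17-5p: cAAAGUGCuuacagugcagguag
miR-20a-5p: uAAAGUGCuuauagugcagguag
miR-18a-5p: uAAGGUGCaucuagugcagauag
miR-19a-3p: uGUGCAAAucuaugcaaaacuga
miR-19b-3p: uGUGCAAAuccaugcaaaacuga
miR-92a-3p: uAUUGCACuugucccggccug
let-7a-5p: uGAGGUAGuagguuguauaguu
let-7d-5p: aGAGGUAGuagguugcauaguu
let-7f-5p: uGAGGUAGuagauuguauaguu
MiR-17-5p and miR-20a-5p share 1 seed, miR-19a-3p and miR-19b-3p share another, and the 3 let-7 forms share 1 as well. Mature microRNAs are too short to be measured in these libraries, so the values are those of the host RNA.

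Mir155hg, the precursor of miR-155, was the highest host at 97.7, 97.4 and 95.9 TPM, with the microRNA in its exon on chromosome 16. Its normalised counts lay within 1.03-fold of each other. Mir142hg, host of the blood-cell microRNA miR-142, followed at 69.0, 52.9 and 59.5 TPM on 151, 103 and 115 counts. Ftx, with Mir421 and Mir374b in its introns, stood next. Mir17hg, the precursor of the growth-promoting miR-17 cluster of 6 microRNAs, was far lower at 5.99, 6.55 and 6.91 TPM, and 6720427I07Rik, with the let-7a-1, let-7d and let-7f-1 genes in its exons, measured 1.60, 1.67 and 1.76 TPM. The order of Mir155hg, Mir142hg, Ftx, Mir17hg and 6720427I07Rik was the same in every library and wider than their spread. The other hosts were Gm26551 with Gm24157, E130102H24Rik with Mir101a at 8.77, 9.06 and 10.1 TPM, 2900076A07Rik with Mir1839 at 10.8, 6.65 and 6.12 TPM, Gm48228 with Gm25649, A730043L09Rik with Gm25603 at 1.81, 2.18 and 2.11 TPM, and Gm2044 with Mir202 at 1.33, 2.36 and 1.76 TPM.

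Most members lay close to a protein-coding gene, and that gene was usually expressed. Within 50 kb, 192 members (85.3%) had a protein-coding gene, against 2879 of 5624 (51.2%) lincRNA genes below the level. The nearest of these was itself at 1 TPM or more in each library for 147 of the 192 members (76.6%), against 46.5% for the other lincRNA genes, and its median level was 28.7 against 0.990 TPM. The share of all protein-coding genes at that level was 45.5%. No test was made, since genes that lie together are not independent replicates.

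Across genes, the level of a member and that of its neighbour showed almost no rank relation. Spearman's correlation of mean TPM was -0.0063 over the 192 members, which share libraries and differ in length and in overlap. Of the members, 60 had a higher level than their nearest neighbour, and in 18 of these the neighbour was expressed. By arrangement, 50 members overlapped the neighbour on the opposite strand, 42 lay head to head, 32 lay downstream and 27 upstream of it in the same direction, 25 lay tail to tail and 16 overlapped it on the same strand. The neighbour was expressed for 86.0% of the members that overlapped on the opposite strand, 83.3% of those head to head and 62.5% of those overlapping on the same strand.

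**Figure D2:**
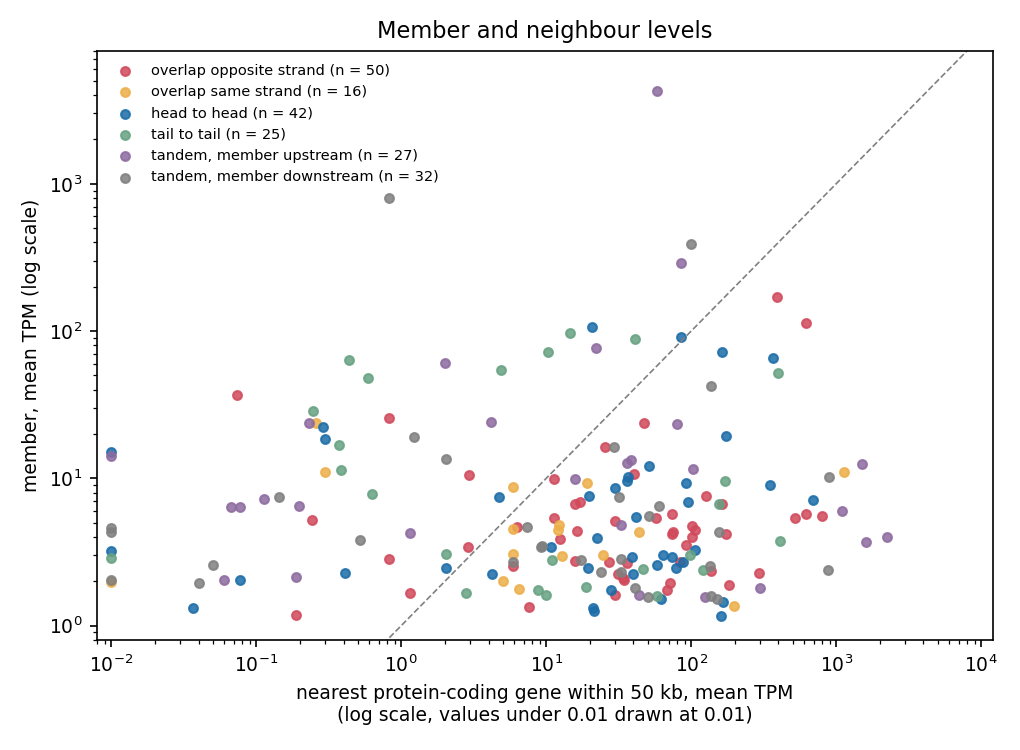
Mean TPM of each member is plotted against mean TPM of its nearest protein-coding gene within 50 kb, both on log scales, for 192 members. Colours give the arrangement and the dashed line marks equal levels. Most points lie to the right of the line, 60 lie above it, and no slope is visible, as the correlation of -0.0063 says.

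A head-to-head pair, in which a lincRNA and a protein-coding gene start within 1 kb of each other and are read away from each other, was found for 24 members (10.7%). Among the other lincRNA genes 224 (3.98%) lay in such pairs. The partner was expressed in 23 of 24 pairs, with a median of 56.9 TPM, and its level was a median of 17.3-fold above the lincRNA. Only 4 members were above their partner. The starts were a median of 176 bases apart. In the pairs of the other lincRNA genes, 60.9% of partners were expressed, with a median of 5.83 TPM. Their partners were a median of 45.5-fold above the lincRNA, where the lincRNA had a level above 0. Over the 23 pairs with an expressed partner, Spearman's correlation of levels was 0.139.

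Among the 10 highest of these members, some lay close to the level of their partner and others far below it. Gm20186 measured 92.3, 80.0 and 100.3 TPM beside Lsm8, a gene of the U6 small nuclear RNA complex, at 87.7, 91.0 and 75.6 TPM, and the 2 ranges overlapped. Gm20186 shares 855 exon bases with Gm26809, a member on the opposite strand with a mean of 289 TPM. The part of this overlap in the level of Gm20186 was not tested. 5031425E22Rik measured 66.1, 63.3 and 67.3 TPM beside the chromatin gene Kmt2e at 355, 396 and 351 TPM. Fam120aos stood at 13.2, 12.5 and 10.7 TPM beside Fam120a at 53.5, 49.5 and 51.4 TPM. Gm16001 reached 11.0, 6.02 and 8.76 TPM beside Ogfod2 at 33.5, 29.5 and 26.1 TPM, with starts 33 bases apart. In 5033430I15Rik the member had 5.75, 10.01 and 7.04 TPM and its partner Atxn1 22.6, 13.1 and 23.8 TPM, so library 2 was high for the lincRNA and low for the partner. AI480526, at 8.28, 7.26 and 6.8 TPM, lay above the methyltransferase gene Setd1b, at 5.71, 2.90 and 5.61 TPM, in every library. The widest gap was that of Gm34086, at 5.04, 4.66 and 3.34 TPM, beside Vps37b, a gene of the endosomal sorting machinery, at 2999, 3544 and 2872 TPM. Gm12319 had 4.57, 3.30 and 4.06 TPM beside the muscle enolase gene Eno3 at 9.10, 11.3 and 9.57 TPM.

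**Figure D3:**
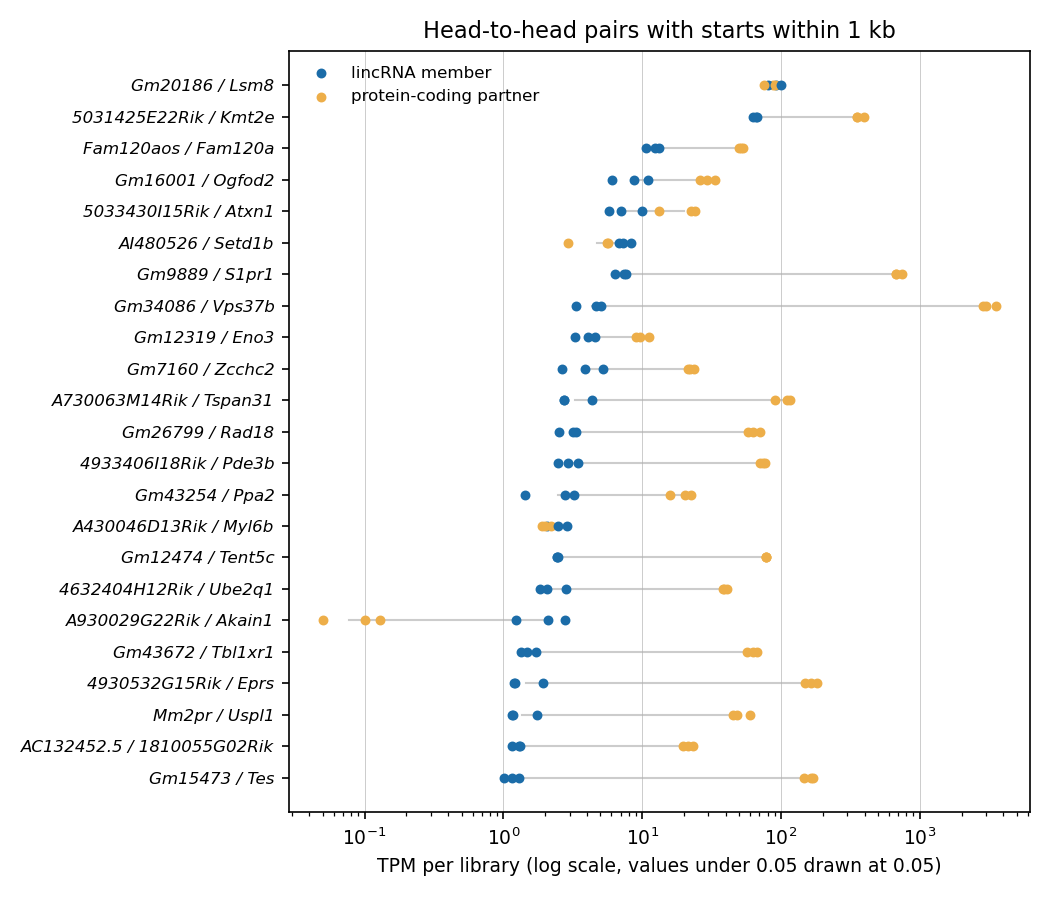
TPM in each library, on a log scale, is shown for 23 of the 24 head-to-head members and their protein-coding partners, which are joined by a grey line between their means. Partners lie to the right of the members in 19 pairs, and the widest gap is that of Gm34086 and Vps37b.

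The stretch between the starts is shown for 2 of the highest pairs in which a single RefSeq promoter window of 300 bases on GRCm38 holds both, since this DNA is where both genes begin. Capitals mark the bases from one start to the other.
Fam120a, chr13:48968011-48968310, minus strand: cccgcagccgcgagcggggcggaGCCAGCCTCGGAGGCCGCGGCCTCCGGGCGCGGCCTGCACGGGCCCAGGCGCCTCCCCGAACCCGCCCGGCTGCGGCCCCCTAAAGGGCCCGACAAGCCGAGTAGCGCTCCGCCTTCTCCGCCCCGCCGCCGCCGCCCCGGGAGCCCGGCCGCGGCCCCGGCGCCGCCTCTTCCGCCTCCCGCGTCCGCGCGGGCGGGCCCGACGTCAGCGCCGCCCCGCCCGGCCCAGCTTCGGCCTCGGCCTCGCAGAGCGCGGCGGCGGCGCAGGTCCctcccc
Gm16001, chr5:124112197-124112496, minus strand: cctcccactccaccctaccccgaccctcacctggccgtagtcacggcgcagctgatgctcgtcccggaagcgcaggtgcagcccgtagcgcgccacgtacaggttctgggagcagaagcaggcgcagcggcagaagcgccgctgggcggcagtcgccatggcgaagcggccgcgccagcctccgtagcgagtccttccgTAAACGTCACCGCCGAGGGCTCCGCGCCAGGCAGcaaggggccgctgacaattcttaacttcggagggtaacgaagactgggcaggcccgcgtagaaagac
The Fam120a window held 54 CG dinucleotides and the Gm16001 window 34, the motif CG being the same on both strands. Over 27025 RefSeq windows of this length the median was 7, and 43.3% held 10 or more. The median was 9 in 97 windows of members, 34 in 11 windows of head-to-head members and 21 in 7977 windows of expressed protein-coding genes. Of the head-to-head windows 72.7% held 10 or more CG, against 46.4% of all member windows and 84.5% of those of expressed protein-coding genes.

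Some members lay beside genes that define T cells. Of a list of 137 such genes, 11 (8.03%) had a member within 50 kb, against 3.51% of all expressed protein-coding genes, and 11 members were involved. The highest was 2310001H17Rik, at 71.6, 70.9 and 73.0 TPM, which lies 28600 bases from the activation marker Cd69 at 1006, 1174 and 1018 TPM. Pvt1 lies 47612 bases from the growth regulator Myc, which measured 116, 164 and 129 TPM. Gm9889, at 7.35, 7.61 and 6.39 TPM, starts 78 bases from S1pr1, the receptor by which T cells leave lymph nodes, at 672, 739 and 674 TPM. Gm26551, at 13.8, 7.59 and 11.6 TPM, overlaps the memory factor gene Tcf7, at 1177, 1111 and 1126 TPM, on the same strand.

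The other members of this kind were also lower than their neighbours. Gm14005, which RefSeq names Morrbid and which is known in mouse myeloid cells to repress the death gene Bcl2l11, measured 7.85, 8.30 and 12.5 TPM, and Bcl2l11, 15772 bases away, 170.2, 158 and 184 TPM. 1300014J16Rik, at 20.1, 16.2 and 21.5 TPM, and Gm26669, at 4.86, 3.27 and 4.40 TPM, flank or overlap Zfp36l1, a gene of messenger RNA decay, with a mean of 175 TPM. Gm44226 and 4833403J16Rik, at means of 6.65 and 4.30 TPM, lie among the lymphocyte GTPase genes Gimap3 and Gimap6, which had means of 1375 and 1397 TPM. Gm31812, at 3.32, 2.92 and 4.97 TPM, lies 932 bases from Stat4, a transcription factor of cytokine signalling with a mean of 412 TPM. Gm31897, at 1.5, 2.49 and 1.4 TPM, lies 5641 bases from the integrin gene Itgal, which had a mean of 296 TPM.

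The name intergenic did not hold for all members. The spans of 124 members overlapped another annotated gene, and in 93 (41.3%) exons overlapped by at least 1 base, against 13.4% of the other lincRNA genes. TPM chose the members and can include reads of a shared exon, and the part of this choice in the difference was not tested. In 82 members the exon overlap was with a gene on the opposite strand and in 21 with one on the same strand, and 49 members shared exon bases with a protein-coding gene. For 55 of the 93, the highest such partner had a higher mean TPM than the member. Members also lay beside each other: 16 pairs of members were within 50 kb, among them Gm26809 with Gm20186, which share 855 exon bases on opposite strands, Mirt1 with 4833407H14Rik, which share 1008, and Ftx with Jpx. RefSeq lists 4833407H14Rik as a synonym of Mirt1.

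Overlap moved with how firmly reads could be assigned. Of the 72 members whose exons overlapped others on the opposite strand only, 69 had an assignment uncertainty above 0, with a median of 4.68%, whereas 45 of 132 members without exon overlap did, with a median of 0. Of the 21 members with same-strand exon overlap, 18 had an uncertainty above 0, with a median of 0.677%. In a wider set of genes at the level, which did not hold all of them, 89.2% of 3182 genes with opposite-strand overlap only had an uncertainty above 0. Their median was 0.312%. The share was 91.7% of 1037 genes with same-strand overlap, with a median of 0.606%, and 29.8% of 6328 without overlap. Levels and counts were not matched between any of these groups. In all, 26 members (21 of them with exon overlap) exceeded 10% in at least 1 library, 14 exceeded 20% and 6 exceeded 50%. Among expressed protein-coding genes 2.45% exceeded 10%. In 93 members the uncertainty was 0 in every library.

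**Figure D4:**
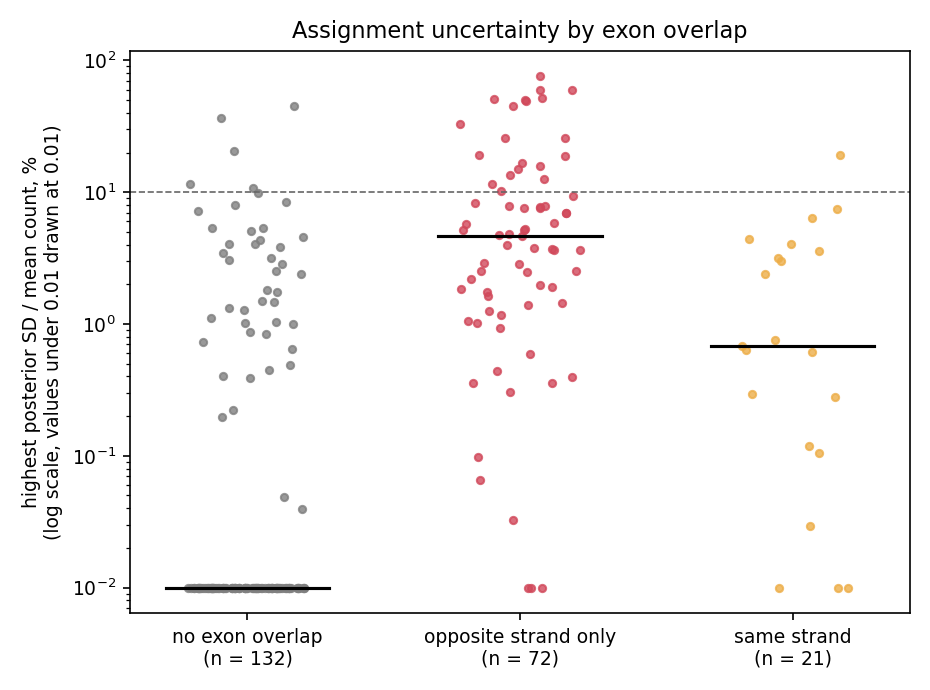
Each point is 1 member, with its highest assignment uncertainty over the 3 libraries in percent on a log scale, grouped by exon overlap with other genes; the 21 members with same-strand overlap are set apart even where they also overlap on the other strand. Black bars are medians and the dashed line marks 10%. The median was 4.68% for 72 members with opposite-strand overlap only and 0 for 132 members without exon overlap.

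The 5 members with the highest uncertainty show what this means for a level. Gm28901 reached 75.7% on 6.56, 12.4 and 10.7 counts, and Gm48228 59.5% on 4.48, 3.91 and 13.0 counts. Gm26825 reached 59.9%. It overlaps the pseudogene Gm15459 by 1860 exon bases on the opposite strand, and it was given 379, 75.3 and 556 counts where Gm15459 was given 390.4, 954 and 0. The member thus received 49.3%, 7.31% and 100% of the counts of the 2 genes, and was low where the pseudogene was high. Gm26699, inside the splicing gene Luc7l2, reached 52.1% and took 2.89%, 7.20% and 8.51% of the counts that the 2 genes hold together. Gm28872 reached 50.7% and shares 134 exon bases with the small nuclear RNA gene Rnu11.

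Differences between libraries were tested for every gene with at least 30 counts in all, with a chi-square test of equal shares. Of 13949 genes tested 57.2% were called at a Benjamini-Hochberg adjusted p of 0.05, and 57.9% of the 11563 genes at 1 TPM or more in each library. Of 213 members tested 82 were called (38.5%), and 12 members had too few counts. The share called rose with the summed count. In 5 classes of rising count, 16.1%, 36.8%, 48.8%, 62.5% and 81.3% of 62, 76, 43, 16 and 16 members were called, and 19.6%, 42.5%, 49.8%, 60.5% and 78.6% of the genes at the level in the same classes. The classes are wide, so counts within them were not matched. After division of the chi-square by its median inflation of 6.45, 8 members (3.76%) were called, against 5.21% of the genes at the level. Genes under 1 TPM in any library could not be members. All of these p-values concern libraries of 1 mouse and test for departure from counting noise in estimated counts. The test takes no account of assignment uncertainty, and it says nothing of the spread between mice.

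Called members were often low in library 2. Of the 82, 45 were lowest there and 19 highest, while among called genes at the level 26.7% were lowest and 53.7% highest in library 2. Without library 2 the count of called members was 42 of 196 tested, in a comparison of only 2 libraries. It was 57 of 194 without library 1 and 62 of 196 without library 3. No share over all genes stands beside these counts. The widest ratios among members with a mean count of 100 or more were those of Gm26825, Gm26870, Gm26546, Gm26884 and Gm42418, and library 2 was the lowest in all 5. Gm26870, at 25.4, 8.50 and 43.3 TPM, had a 5.08-fold range of normalised counts (adjusted p = 7.1e-49). It lies at 3000282 to 3038313 on chromosome 9, beside several protein-coding genes with Gm symbols on the opposite strand that share exon bases with it. Gm26825 had a 7.42-fold range (adjusted p = 1.72e-76), given with its pseudogene partner above. Gm26546, at 7.85, 3.05 and 6.33 TPM, overlaps Gnptab, Gm26884, at 4.10, 2.73 and 5.12 TPM, overlaps Gtpbp1, and their ranges were 2.59-fold (adjusted p = 4.35e-17) and 1.87-fold (adjusted p = 0.000288). After division by the inflation Gm26884 was no longer called (adjusted p = 0.855), and the other 4 were. These p-values are from the chi-square test with Benjamini-Hochberg adjustment.

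**Figure D5:**
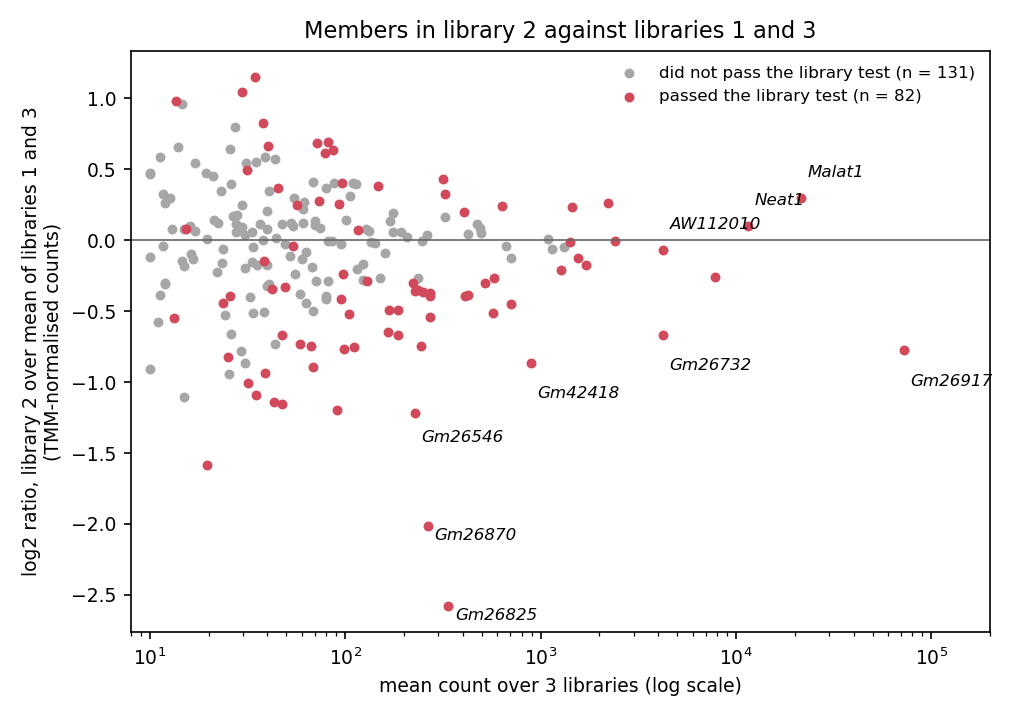
For the 213 members tested, the log2 ratio of TMM-normalised counts in library 2 to the mean of libraries 1 and 3 is plotted against mean count on a log scale. Red points passed the library test (82) and grey ones did not (131). Gm26917, Gm42418, Gm26825 and Gm26870 lie well below 0, and Malat1 and Neat1 slightly above it.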

How the data were processed

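Polyadenylated RNA of 1 mouse was measured in 3 libraries, taken as 1 group of technical replicates per the labels. The authors deposited, per the file headers, expected counts (estimated counts that share ambiguous reads), TPM, FPKM, posterior mean TPM, isoform percent, and posterior means and standard deviations of counts, on mm10 with GENCODE M21. A second deposited table holds whole counts for 22457 genes of GENCODE M4. No source used here names the quantifier, its strand setting or read trimming. Members and lists were chosen with earlier results of these data known.

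Positions, gene types and overlaps came from the GENCODE M21 annotation on GRCm38, and sequences from that annotation and from RefSeq GRCm38.p6, where 97 members matched a promoter window. Expected counts, rounded to whole numbers, were compared between libraries with a chi-square test for each gene, using TMM effective sizes from edgeR 4.0.16 and a minimum of 30 counts, and Benjamini-Hochberg adjustment. The test was first tried on simulated counts with known changes in library 2 and counting noise only. That trial does not show how the test behaves under the wider spread of these data. DESeq2 1.42.0 size factors were an alternative. Named genes were the 20 highest members, members of the known lists, microRNA hosts, the 10 highest head-to-head members, members within 50 kb of a listed T cell gene, the 5 widest library ratios, the 5 highest uncertainties and 3 genes on each side of the level. Results for some genes that these rules name are not reported here. Python 3.11.15, pandas 2.3.3, scipy 1.17.1, matplotlib 3.10.9 and R 4.3.3 were used.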

Additional observations from a re-analysis of the deposited data

How the results depend on the processing

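The number of members ranged from 331 at 0.5 TPM to 159 at 2 TPM and fell to 87 at 5 TPM. Called members fell from 82 to 8 after division by the median inflation, to 45 of 115 tested without genes over 1% assignment uncertainty, and to 0 of 3 tested in the second gene table. When 1 library was left out, called members ranged from 42 of 196 tested to 62 of 196 tested. No share over all genes stands beside the counts from the uncertainty filter, the second table or the left-out libraries. The share with a protein-coding gene nearby was 63.6% at 10 kb, 92.0% at 100 kb and 74.7% between starts. The neighbour was expressed in 64.1% at 10 TPM and in 82.5% at 10 kb. Exon overlap held for 9.33% on the same strand only and 21.8% with protein-coding partners. Uncertainty exceeded 5% in 49 members and 20% in 14, and exceeded 10% in 5 without exon overlap. The median level was 4.17 as posterior mean TPM, 2.74 in FPKM and 3.81 to 4.11 when 1 library was left out, where members were chosen again. The share of gene counts was 0.574% without Gm26917 and Gm42418. Of 57 alternatives tried on these results, 36 stayed within the tolerance used. That was 1.5-fold for numbers of genes or pairs, so 331 members against 225 stayed within it. For shares of members and the correlation it was a 95% confidence interval. For the median level and the share of gene counts it was 1 SD over libraries. Chosen after seeing the data were the restriction to members without exon overlap, the share of gene counts and the removal of Gm26917 and Gm42418, the level per longest transcript (254 members), head-to-head pairs with overlapping ends (30), the neighbour share without members over 10% uncertainty (85.4%), and the posterior mean and left-out libraries for single members. The cause was not tested. No paired analysis was possible because all libraries belong to 1 group. Low members rest on few counts, and 12 could not be tested.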
